A study of Mus musculus with 6 samples.

Results

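The 9 genes described here, Sox2, Hopx, Eomes, Neurog2, Neurod1, Sox4, Sox11, Dcx and Igfbpl1, mark successive steps of adult hippocampal neurogenesis. They were taken by their symbols from the 54752 genes counted, each symbol matched 1 Ensembl identifier, and all 9 passed the filter on low counts. RNA was sequenced from the entire right hippocampus of 3 sham mice and 3 mice with bilateral carotid artery stenosis (BCAS), with 1 library per mouse. All were male wild-type mice of the strain labelled C57BL/6 (C57BL/6 J in the study's methods) and labelled 14 weeks, and the tissue was taken 3 weeks after surgery. BCAS mice carried a microcoil on each common carotid artery, with the narrower coil on the right. Sham mice underwent the operation with no coil placed. The hippocampus was not dissected into subfields and no cell type was isolated, so each value is a mean over all cells of the tissue. Dentate gyrus markers were present in sham mice, with Prox1 at 96.9 CPM and C1ql2 at 95.3 CPM, as was the CA1 marker Fibcd1 at 170 CPM, where CPM is the count of a gene scaled to a common library size.

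New neurons arise in the adult dentate gyrus from radial glia-like stem cells in the subgranular zone. These stem cells share many genes with astrocytes, among them Sox2 and Hopx. They give rise to intermediate progenitors that transiently express Eomes (Tbr2) and Neurog2, and then to neuroblasts and immature granule neurons that express Neurod1, Sox4, Sox11, Dcx and Igfbpl1. Dcx protein, a microtubule-binding protein of migrating neurons, is widely used to count immature neurons in tissue sections.

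The libraries held 29652456 to 35607098 counts, with higher totals in the 3 sham mice than in the 3 BCAS mice. A limit of 3 counts corresponded to 0.0874 to 0.0994 CPM and does not cover the spread between mice. It covers counting error only loosely, since the mates of a read pair were counted separately and 3 counts can come from fewer fragments. Counts were normalized to CPM by TMM and the groups were compared with edgeR's quasi-likelihood test, with Benjamini-Hochberg adjustment over the 18617 genes tested and a threshold of 0.05. Of these genes, 3356 (18%) rose and 2463 (13.2%) fell in BCAS mice, and scaling by library totals gave 3857 and 1790. Without sham mouse 1, 2 or 3, the genes that fell numbered 1450, 1412 and 1260. Microglial markers rose in 10 of 10 genes, with a summed level of 376 to 394 CPM in sham mice and 2581 to 4259 CPM in BCAS mice. Astrocyte markers rose in 10 of 11 genes, from a sum of 5771 to 6086 CPM to one of 11282 to 11661 CPM. Mature neuron markers fell in 6 of 7 genes, from 9222 to 9557 CPM to 4909 to 7034 CPM. Ependymal and choroid plexus markers varied widely within both groups, from 84.9 to 4017 CPM in sham mice and from 63.3 to 5828 CPM in BCAS mice. No marker gene was at 0 in all libraries. The dentate gyrus markers also varied between mice of a group, with Prox1 at 106, 111 and 73.8 CPM in sham mice 1 to 3 and 116, 58.2 and 89.8 CPM in BCAS mice 1 to 3. C1ql2 was at 89.4, 111 and 85.8 CPM and at 136, 54.5 and 84.8 CPM in the same mice. Both were thus highest in BCAS mouse 1 and lowest in BCAS mouse 2, the order of the ependymal and choroid plexus sums among BCAS mice, and the part of this variation in the values of the 9 genes was not tested.

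Among the 9 neurogenesis genes, Sox2, Sox4 and Sox11 rose in BCAS mice, Neurog2 fell, and the other 5 did not pass the test. These 4 calls of 9 compare with 31.3% of all genes tested. The log2 fold changes ran from -1.86 for Neurog2 to 0.94 for Igfbpl1, with a median of 0.34 beside 0.02 over all genes. BCAS mice all lay above sham mice in 4 of the genes (Sox2, Hopx, Sox4 and Sox11) beside 25.3% of all genes, and all lay below in 1 (Neurog2) beside 22.7%. At an unadjusted P under 0.05, 6 of the 9 passed, beside 42.4% of all genes. Neurog2 alone also had an absolute log2 fold change above 1, a change that 0.999% of all genes met in the lower direction and 8.47% in the higher. In whole tissue, fewer cells of a type and less RNA per cell cannot be told apart. The number of calls depended on single libraries: it was 2 without sham mouse 1 or BCAS mouse 2 and 1 without sham mouse 2 or sham mouse 3. The share of all genes called also fell without a sham mouse, to 20.5%, 21% and 19.8% without sham mice 1, 2 and 3, and was 34.7% without BCAS mouse 2.

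**Figure D1:**
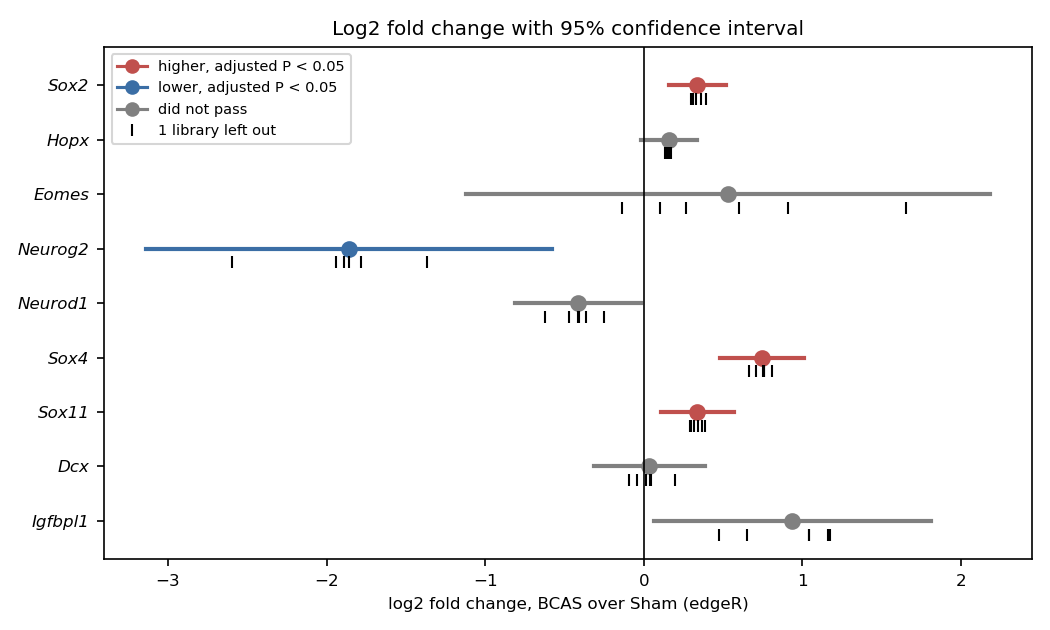
Log2 fold change of each of the 9 genes in BCAS over sham mice (edgeR, 3 mice per group), with its 95% confidence interval as a line and the values with 1 library left out as ticks below it. Sox4 lies at 0.74 with ticks from 0.66 to 0.81, whereas the ticks of Eomes and Dcx fall on both sides of 0.

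The upstream sequences of the 4 genes that passed the test are given from RefSeq (GRCm38.p6), since 3 of them encode related Sox factors that rose together and the fourth encodes a basic helix-loop-helix factor that fell. Each stretch of 200 bases runs from 250 to 51 bases before the RefSeq start, 5′ to 3′ on the strand of the gene, and contains no exonic base of the annotation used for counting. The positions are chr3:34649745-34649944 on the plus strand for Sox2, chr13:28953750-28953949 on the minus strand for Sox4, chr12:27342769-27342968 on the minus strand for Sox11 and chr3:127632886-127633085 on the plus strand for Neurog2. Capitals mark matches, on either strand, to CANNTG (the E-box of basic helix-loop-helix factors, of which both CAGATG and the palindrome CAGCTG are forms), to ACAATG or to the similar ACAAAG, which are Sox-type motifs.
Sox2: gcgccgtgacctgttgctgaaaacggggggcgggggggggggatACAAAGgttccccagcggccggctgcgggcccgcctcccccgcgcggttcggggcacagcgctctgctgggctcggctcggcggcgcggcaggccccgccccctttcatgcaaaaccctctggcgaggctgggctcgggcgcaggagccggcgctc
Sox4: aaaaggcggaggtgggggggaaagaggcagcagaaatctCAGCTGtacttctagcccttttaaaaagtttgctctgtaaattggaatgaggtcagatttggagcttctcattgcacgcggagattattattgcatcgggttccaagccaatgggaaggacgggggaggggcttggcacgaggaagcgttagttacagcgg
Sox11: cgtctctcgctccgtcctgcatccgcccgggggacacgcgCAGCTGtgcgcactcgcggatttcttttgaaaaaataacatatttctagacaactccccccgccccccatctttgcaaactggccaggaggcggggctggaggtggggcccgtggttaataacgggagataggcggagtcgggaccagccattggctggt
Neurog2: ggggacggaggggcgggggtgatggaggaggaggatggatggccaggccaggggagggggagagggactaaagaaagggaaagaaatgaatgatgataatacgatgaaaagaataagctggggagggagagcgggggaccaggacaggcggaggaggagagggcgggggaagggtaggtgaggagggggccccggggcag
Sox4 and Sox11 each held 1 CANNTG match, in both cases CAGCTG, and Sox2 held 1 ACAAAG match. A CANNTG match was not limited to genes that passed: the Neurod1 window and a Hopx window also held 1 each, though with 99 and 200 exonic bases. Over 32817 mouse promoters cut to the same window, 59.1% held CANNTG, 12% CAGATG, 10.3% CAGCTG, 8.94% ACAATG and 13.6% ACAAAG. The share for CAGCTG was looked up after it had been seen in both sequences. In the Neurog2 window none of these letter runs occurred.

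Sox2 and Hopx represent the stem cell stage. Sox2, a transcription factor that keeps neural stem cells undifferentiated, is a gene of 1 exon on the plus strand (ENSMUSG00000074637.7, mm10 chr3:34650405-34652461) and lies inside an intron of the noncoding gene Sox2ot. Its level was 63.1, 59.9 and 58.8 CPM in sham mice 1 to 3 and 80.5, 69.5 and 79.5 CPM in BCAS mice 1 to 3. Every BCAS mouse lay above every sham mouse, and BCAS mouse 2 was the lowest of its group. The mean rose from 60.6 ± 2.21 to 76.5 ± 6.10 CPM (SD, n = 3), a log2 fold change of 0.34 (SE 0.08, edgeR adjusted P = 0.0128). Sox2ot, which shares no exonic base with Sox2, had a log2 fold change of -0.18 (edgeR adjusted P = 0.287). Sox2 is also a gene of ependymal cells, and the summed ependymal and choroid plexus markers were likewise lowest in BCAS mouse 2 of its group (5828, 63.3 and 3167 CPM in BCAS mice 1 to 3, against 982, 4017 and 84.9 CPM in sham mice), but their part in the Sox2 values was not tested. The adjusted P of Sox2 was 0.0566 without sham mouse 2 and 0.0572 without sham mouse 3.

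Hopx, a homeodomain-only protein found in quiescent hippocampal stem cells and in astrocytes, lies on the minus strand (ENSMUSG00000059325.14, chr5:77086988-77115121). Its level was 32.8, 32.3 and 32.0 CPM in sham mice and 37.2, 35.8 and 35.4 CPM in BCAS mice. The groups did not overlap and Hopx varied less within them, relative to its mean, than any other of the 9 genes. The means of 32.3 ± 0.403 and 36.1 ± 0.947 CPM (SD, n = 3) gave a log2 fold change of 0.16 (95% interval -0.02 to 0.33), which did not pass the test (edgeR adjusted P = 0.15). With library totals in place of TMM it was 0.23 and passed (edgeR adjusted P = 0.0489). This scaling moved other genes as well, with the median log2 fold change over all genes going from 0.02 to 0.09. Hopx shares 27.2% of its exonic bases with the antisense gene Hopxos, and reads on such bases were assigned to neither gene.

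Both stem cell genes are also expressed by astrocytes, whose markers had risen. Relative to the mean log2 level of the 11 astrocyte markers, Sox2 was 0.57 lower and Hopx 0.74 lower in BCAS mice on the log2 scale, each in 3 of 3 mice (exact two-sided permutation test, P = 0.1, the smallest that 3 against 3 can give). Without Gfap, an intermediate filament gene of reactive astrocytes, the differences were -0.33 for Sox2 and -0.50 for Hopx. The change of both genes was thus smaller than the mean change of the astrocyte markers in these libraries. The part of astrocytes in the Sox2 values was not tested.

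Eomes and Neurog2 represent the intermediate progenitors. Eomes, a T-box transcription factor, lies on the plus strand (ENSMUSG00000032446.14, chr9:118478212-118486132) and had the fewest counts of the 9 genes. It gave 53, 15 and 8 counts in sham mice 1 to 3 and 61, 12 and 30 counts in BCAS mice 1 to 3, or 1.56, 0.449 and 0.233 CPM against 1.88, 0.397 and 0.961 CPM. Mouse 1 was the highest in both groups, and the groups overlapped throughout. The log2 fold change of 0.53 had a 95% interval from -1.12 to 2.18 (edgeR adjusted P = 0.620) and ran from -0.14 without BCAS mouse 1 to 1.65 without sham mouse 1 (edgeR adjusted P = 0.923 and 0.146), so no difference was detected against the spread between mice of a group. Eomes is also expressed by cytotoxic lymphocytes, and 8 of 12 T and NK cell markers were tested and rose, beside 18% of all genes. The sum of these markers went from 0.990 to 1.41 CPM in sham mice to 11.1 to 17.3 CPM in BCAS mice. It is a gene of Cajal-Retzius cells as well, whose 5 markers did not pass the test and summed to 92.8 to 99.7 CPM in sham mice and 103 to 112 CPM in BCAS mice. The part of these cells in the Eomes values was not tested.

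Neurog2 encodes a proneural basic helix-loop-helix factor that acts upstream of Eomes and Neurod1 in cells of the glutamatergic lineage. It lies on the plus strand (ENSMUSG00000027967.8, chr3:127633135-127635631) and shares no exonic base with another gene. Sham mice 1 to 3 gave 92, 80 and 102 counts, or 2.71, 2.39 and 2.97 CPM. BCAS mice 1 to 3 gave 43, 23 and 4 counts, or 1.32, 0.762 and 0.128 CPM. All BCAS mice lay below all sham mice, and the value of BCAS mouse 3 was close to the limit of 3 counts. The mean fell from 2.69 ± 0.290 to 0.737 ± 0.597 CPM (SD, n = 3), a log2 fold change of -1.86 (SE 0.56, 95% interval -3.14 to -0.58, edgeR adjusted P = 0.0350). Without BCAS mouse 3 it was -1.37 (edgeR adjusted P = 0.0174). The adjusted P was above 0.05 without any 1 of the sham mice (0.0948, 0.0664 and 0.104 without sham mice 1, 2 and 3) and without BCAS mouse 2 (0.0530), with log2 fold changes of -1.94 to -1.78 in those 4 fits. With the replicate number as a block the log2 fold change was -2.09 and the call was also lost (edgeR adjusted P = 0.0506).

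The other 5 genes are those of neuroblasts and immature neurons. Sox4 and Sox11 belong to the SoxC group of transcription factors, which switch on pan-neuronal genes in newborn neurons. Sox4 is a gene of 1 exon on the minus strand (ENSMUSG00000076431.4, chr13:28948919-28953713). Its level was 12.3, 11.5 and 10.02 CPM in sham mice and 18.6, 18.4 and 19.6 CPM in BCAS mice. The groups lay far apart, and the BCAS mice were close to each other. The mean rose from 11.3 ± 1.15 to 18.9 ± 0.675 CPM (SD, n = 3), 1.68-fold, with a log2 fold change of 0.74 (SE 0.12, edgeR adjusted P = 0.00185). Sox4 passed at the adjusted P threshold in all 13 other fits, with log2 fold changes of 0.66 to 0.82. Of its 4795 exonic bases, 2616 are shared with the antisense gene Gm26735, which had 0 counts, and reads on the shared bases were not assigned. Sox4 is not restricted to neurons and is also expressed in lymphoid and endothelial cells and in oligodendrocyte precursors. Endothelial markers rose in 4 of 6 genes, from 198.8 to 216 CPM in sum to 269 to 302 CPM. Markers of oligodendrocyte precursors and committed oligodendrocytes rose in 3 of 9, from 422 to 459 CPM to 471 to 580 CPM. Both counts stand beside 18% of all genes that rose, and the T and NK cell sums are those given with Eomes. The part of these cells in the Sox4 values was not tested.

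Sox11, likewise a gene of 1 exon (ENSMUSG00000063632.6, chr12:27334264-27342574, minus strand), shares no exonic base with another gene. Its level was 18.5, 16.8 and 17.9 CPM in sham mice and 22.9, 23.5 and 20.8 CPM in BCAS mice. The lowest BCAS mouse lay above the highest sham mouse. The mean rose from 17.8 ± 0.871 to 22.4 ± 1.44 CPM (SD, n = 3), a log2 fold change of 0.34 (SE 0.10, edgeR adjusted P = 0.0338). The fold changes kept this direction when single mice were left out (0.29 to 0.38), but the adjusted P reached 0.0684, 0.125, 0.0825, 0.0931 and 0.0741 without sham mouse 1, sham mouse 2, sham mouse 3, BCAS mouse 1 and BCAS mouse 2. It was also above the threshold without the filter on low counts (0.0670) and with the replicate number as a block (0.0841). Sox11 and Sox4, whose upstream sequences are given above, thus changed in the same direction, Sox4 by the larger fold change.

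Neurod1, a basic helix-loop-helix factor needed for the survival and maturation of newborn granule neurons, lies on the minus strand (ENSMUSG00000034701.9, chr2:79452521-79456751). Sham mice had 24.3, 22.2 and 25.7 CPM, and BCAS mice had 22.9, 17.7 and 13.6 CPM. BCAS mouse 1 lay within the sham range and the other BCAS mice lay below it. The means of 24.1 ± 1.76 and 18.1 ± 4.64 CPM (SD, n = 3) gave a log2 fold change of -0.41 (95% interval -0.81 to -0.02, edgeR adjusted P = 0.103). It was -0.62 and passed without BCAS mouse 1 (edgeR adjusted P = 0.0164), and it was -0.25 without BCAS mouse 3 (edgeR adjusted P = 0.229). Neurod1 is expressed in mature granule cells as well as in immature ones. Of its exonic bases, 13.0% are shared with Cerkl and Gm26755.

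Dcx lies on the X chromosome (ENSMUSG00000031285.14, chrX:143855842-143933311, minus strand). The 3 sham mice were almost equal, with 25.1, 25.1 and 24.1 CPM. BCAS mice 1 and 2 lay above them with 27.8 and 29.2 CPM, and BCAS mouse 3 lay below with 19.0 CPM. The means were 24.8 ± 0.606 and 25.3 ± 5.54 CPM (SD, n = 3), with a far larger spread among BCAS mice. The log2 fold change was 0.03 with a 95% interval of -0.32 to 0.38 (edgeR adjusted P = 0.895), and its sign turned without BCAS mouse 1 (-0.04) and without BCAS mouse 2 (-0.09). Without BCAS mouse 3 it was 0.20 (edgeR adjusted P = 0.183).

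Igfbpl1, an IGF-binding protein-like gene expressed in neuroblasts, lies on the minus strand (ENSMUSG00000035551.6, chr4:45809468-45826923). Sham mice gave 142, 124 and 63 counts and BCAS mice 311, 155 and 122 counts, or 4.19, 3.71 and 1.83 CPM against 9.56, 5.13 and 3.91 CPM. BCAS mouse 3 lay within the sham range, and BCAS mouse 1 had the highest level of all. The means of 3.24 ± 1.24 and 6.20 ± 2.98 CPM (SD, n = 3) gave a log2 fold change of 0.94 (95% interval 0.06 to 1.81, edgeR adjusted P = 0.0971). The call depended on the analysis: DESeq2 gave 0.92 with an adjusted P of 0.0406, and the edgeR fit without a filter on low counts gave an adjusted P of 0.0185. The edgeR fit with the replicate number as a block gave 0.92 with an adjusted P of 0.0267. Leaving out BCAS mouse 1 gave 0.48 (edgeR adjusted P = 0.35), the lowest value among the fits without 1 mouse.

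**Figure D2:**
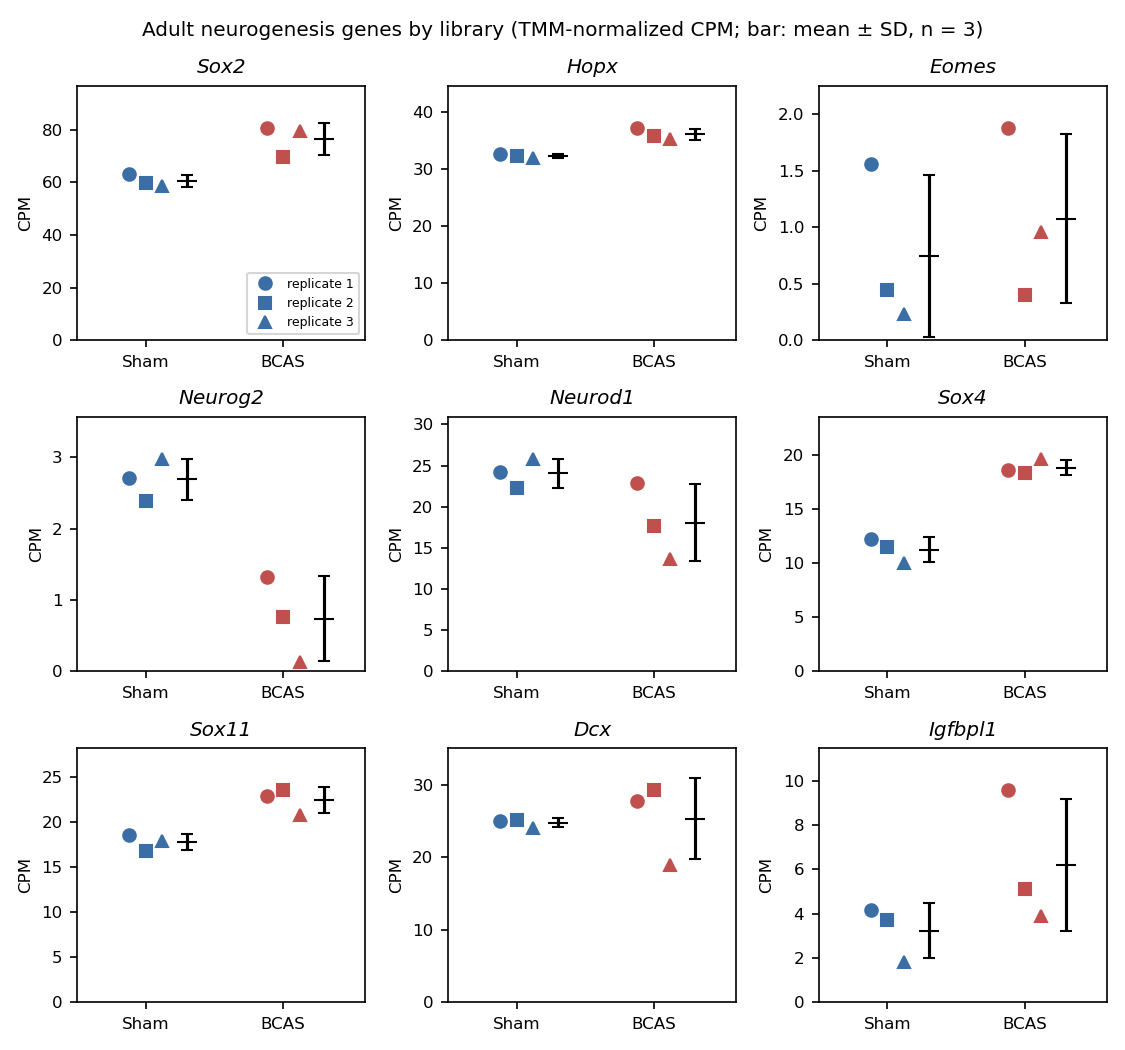
Level of the 9 genes in each library in TMM-normalized CPM, with sham mice in blue and BCAS mice in red, symbols for the replicate number of the labels, and bars for mean ± SD (n = 3). The groups are apart in Sox2, Hopx, Sox4, Sox11 and Neurog2 and overlap in Eomes, Neurod1, Dcx and Igfbpl1.

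Some libraries held the same rank in several of the genes. BCAS mouse 1 was the highest of its group in 6 of the 9 genes and BCAS mouse 3 the lowest in 6, including Neurog2, Neurod1, Dcx and Igfbpl1. Among sham mice, mouse 1 was the highest in 6 genes and mouse 3 the lowest in 6. BCAS mouse 3 also had the lowest mean level of the mature neuron markers, 8.997 on the log2 scale against 9.38 and 9.49 in BCAS mice 1 and 2.

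To compare levels between genes, CPM was divided by the length in kilobases of the exonic bases that a gene does not share with another gene. In sham mice Sox2 (29.5 ± 1.08 CPM per kilobase, SD, n = 3) and Hopx (29.3 ± 0.365) were the highest, with overlapping ranges. Neurod1 (10.1 ± 0.740), Sox4 (5.17 ± 0.529), Sox11 (2.14 ± 0.105) and Dcx (1.96 ± 0.0479) followed, each with a range apart from the next. Neurog2 (1.21 ± 0.130) and Igfbpl1 (0.998 ± 0.383) overlapped each other, and Eomes was the lowest (0.185 ± 0.177). Both stem cell genes were thus more abundant per length than the other 7 genes. In BCAS mice Sox2 (37.2 ± 2.96) lay above Hopx (32.7 ± 0.857) without overlap, Sox4 (8.66 ± 0.310) stood beside Neurod1 (7.61 ± 1.96) with overlapping ranges, and Sox11 was at 2.70 ± 0.173. Dcx (2.003 ± 0.438) and Igfbpl1 (1.91 ± 0.916) overlapped, and Neurog2 (0.331 ± 0.268) and Eomes (0.267 ± 0.185) were the lowest on this scale.

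The mature neuron markers fell, so the genes of the neuronal lineage were also expressed relative to the mean log2 level of these 7 markers. In sham mice this marker mean equalled 9.90 ± 0.0306, against 9.29 ± 0.257 for BCAS mice (SD, n = 3). Dcx relative to these markers was -5.21, -5.25 and -5.33 in sham mice and -4.57, -4.61 and -4.74 in BCAS mice. On this scale the groups did not overlap and the spread seen in CPM among BCAS mice was small. The difference was 0.62 for Dcx, 1.36 for Sox4, 0.95 for Sox11 and 1.51 for Igfbpl1, and each was higher in 3 of 3 BCAS mice. Neurog2 was 1.48 lower in 3 of 3 BCAS mice, and 0.86 lower without BCAS mouse 3. Neurod1 differed by 0.17 with overlapping groups (exact two-sided permutation test, P = 0.4), whereas the same test gave its smallest possible value, P = 0.1, for the other 5 genes. With single mice left out the difference of Dcx was 0.59 to 0.67, whereas that of Neurod1 ran from 0.03 without BCAS mouse 1 to 0.27 without BCAS mouse 2. This ratio describes Dcx relative to the neuron markers and does not show that Dcx itself changed.

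**Figure D3:**
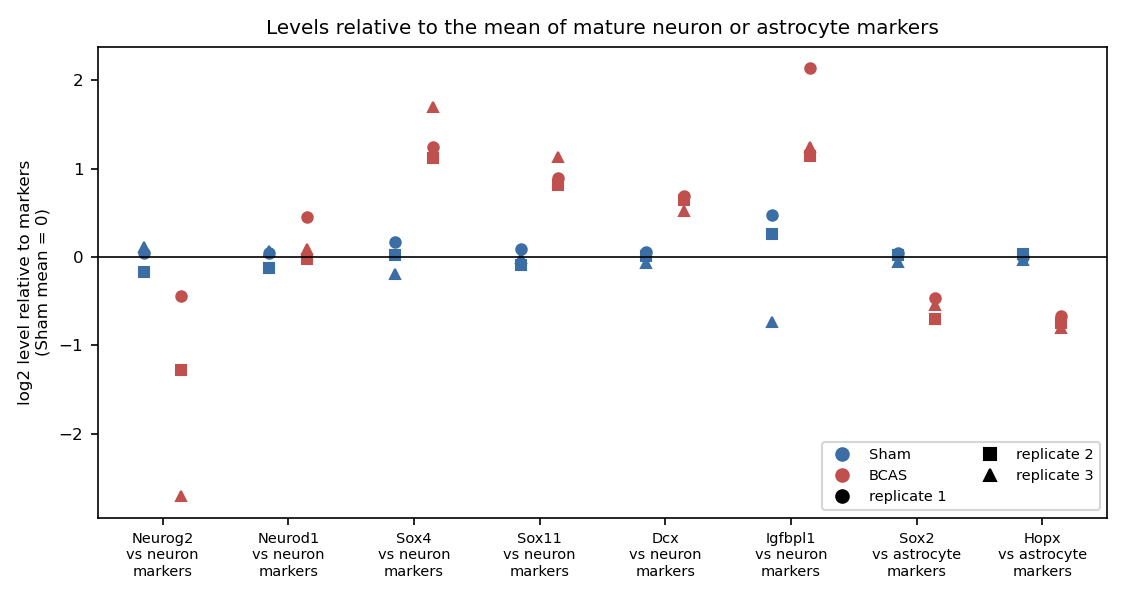
Log2 level of each gene relative to the mean of mature neuron markers (6 genes of the neuronal lineage) or astrocyte markers (Sox2 and Hopx), with the sham mean set to 0, sham mice in blue, BCAS mice in red and symbols for the replicate number. Dcx lies above all sham mice in the 3 BCAS mice, by 0.62 on average, Neurod1 overlaps with sham mice, and Sox2 and Hopx lie below 0. The mean of the neuron markers itself differed by -0.61.

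Another 66 genes of the neurogenic lineage were examined by stage, of which 64 passed the filter, 20 rose and 11 fell, with a median log2 fold change of 0.16. Among stem cell genes, 13 of 19 tested rose and 0 fell, beside 18% and 13.2% of all genes. The intermediate filament Vim rose from 57.4 to 398 CPM (log2 fold change 2.79, SE 0.18, edgeR adjusted P = 2.09e-05). The receptor Notch2 (1.09), the glial transcription factor Sox9 (0.87) and the fatty acid-binding protein Fabp7 (0.86) also rose. Nes (0.75), an intermediate filament gene of neural stem cells, passed the test too, whereas Hes1, Hes5, Sox1, Emx2, Prom1 and Rhcg did not. Many of these genes are also expressed by astrocytes, whose summed marker level was given above, and the part of astrocytes was not tested.

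Proliferation genes rose in 6 of 10, beside 18% of all genes, with the mitotic kinase Cdk1 from 0.383 to 4.31 CPM (log2 fold change 3.48, edgeR adjusted P = 0.000114), the topoisomerase Top2a from 1.65 to 8.48 CPM (2.36, 0.00391), the thymidine kinase Tk1 from 0.798 to 3.36 CPM (2.07, 0.00375) and the cyclin Ccnb1 from 0.757 to 2.79 CPM (1.88, 0.0133). The other 4 had log2 fold changes of 0.14 for Pcna, 0.15 for Ccnd2, 0.42 for Mcm2 and 0.47 for Ccnd1. Any dividing cell expresses these genes, and the microglial markers moved with them, from a sum of 376 to 394 CPM to one of 2581 to 4259 CPM. Their part in the proliferation genes was not tested.

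Among the intermediate progenitor genes tested, Insm1, a zinc-finger factor of these cells, fell from 12.7 to 6.34 CPM (log2 fold change -1.001, SE 0.19, edgeR adjusted P = 0.00524), the Notch-modifying enzyme Mfng rose from 4.82 to 14.7 CPM (1.61, 0.00107), and the other 4 did not pass. Mfng was at 11.1, 12.7 and 20.4 CPM in BCAS mice 1 to 3, where the microglial sums were 2581, 2846 and 4259 CPM and the T and NK cell sums 12.3, 11.1 and 17.3 CPM, and the part of these cells in the Mfng values was not tested. Calls in this stage were thus 1 higher and 1 lower of 6 tested, beside 18% and 13.2% of all genes. All BCAS mice lay below all sham mice in Insm1, as in Neurog2 and in 22.7% of all genes, whereas Eomes (0.53) did not pass. The mature neuron markers fell in the same libraries, and their part in the Insm1 values was not tested. Of the 20 neuroblast and immature neuron genes 6 fell and 0 rose, beside 13.2% and 18% of all genes. These included Neurod6 from 249.6 to 84.9 CPM (-1.56), Neurod2 from 145 to 85.9 CPM (-0.75), Bhlhe22 from 124 to 75.1 CPM (-0.73) and Elavl2 from 100.2 to 63.5 CPM (-0.66), which mature hippocampal neurons also express. Neurod6 is among the 7 hippocampal subfield markers as well, of which 4 fell, from a sum of 1061 to 1201 CPM to one of 553 to 732 CPM. Calb2, the calretinin of immature granule neurons, had a log2 fold change of -0.15 (edgeR adjusted P = 0.563). In the main fit Sox4 and Sox11 therefore rose in a group whose other members either fell or did not pass. Igfbpl1 was among those that did not pass, with a log2 fold change of 0.94 and a call in some other fits. The difference between these genes was not tested. Markers of the subventricular zone lineage, from which neuroblasts of the olfactory bulb come, fell in 3 of 9 genes, with sums of 624 to 668 CPM in sham mice and 456 to 494 CPM in BCAS mice, and several of these are also genes of hippocampal interneurons.

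Of 9 genes of granule cell maturation, 4 fell and 0 rose, beside 13.2% of all genes that fell. Mature neuron markers (6 of 7 lower, sums of 9222 to 9557 and 4909 to 7034 CPM) and hippocampal subfield markers (4 of 7 lower) moved with them, and their part was not tested. Tdo2 fell from 7.80 to 2.76 CPM (-1.496), the desmosomal gene Dsp from 27.6 to 11.1 CPM (-1.31), the calbindin gene Calb1 from 152 to 82.9 CPM (-0.87) and the synaptic organizer C1ql3 from 51.5 to 33.5 CPM (-0.62). Prox1, the transcription factor that sets granule cell identity, had 96.9 and 88.1 CPM (log2 fold change -0.14, edgeR adjusted P = 0.699), and C1ql2 had 95.3 and 91.7 CPM (-0.06, 0.901), both with the spread between mice given above.

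**Figure D4:**
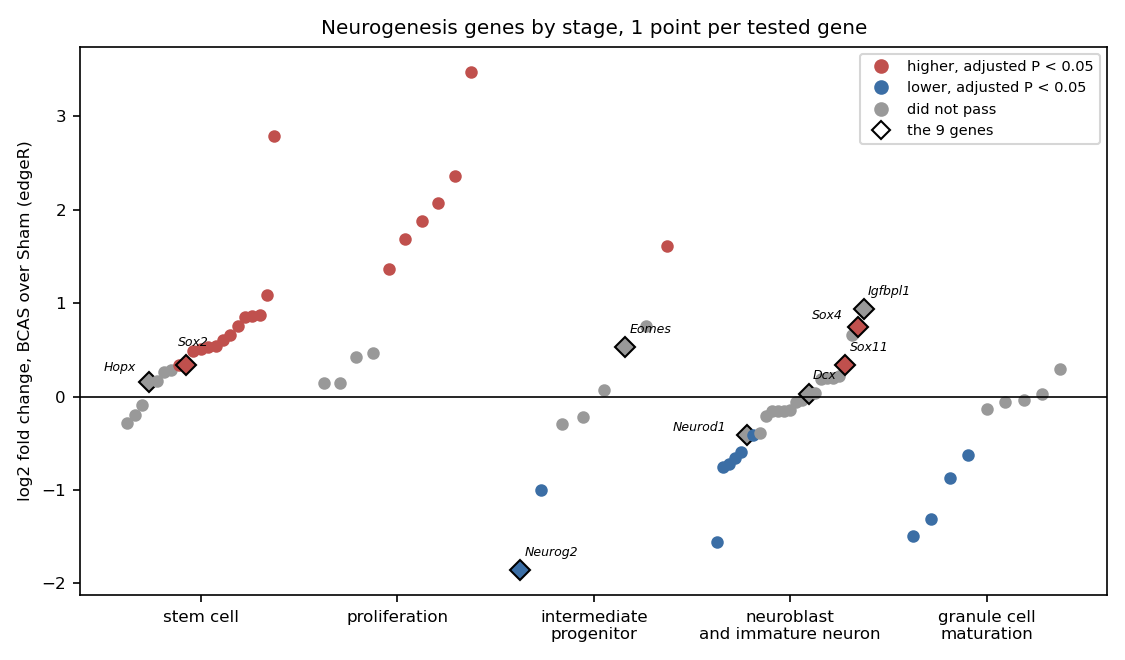
Log2 fold change in BCAS over sham mice of each tested neurogenesis gene, 1 point per gene, ordered by value within its stage, with the 9 genes as diamonds. Stem cell and proliferation genes lie mostly above 0, whereas the genes that passed in the granule cell group all lie below 0.

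Signals that act on the neurogenic niche were taken as a further list of 32 genes, of which 31 were tested, 13 rose and 4 fell, beside 18% and 13.2% of all genes, the shares against which the counts of its groups are to be read. Bmp signals keep stem cells quiescent, and 4 of 6 genes rose: Bmp6 from 19.2 to 45.7 CPM (log2 fold change 1.25), Bmp4 from 3.37 to 6.76 CPM (1.00), the target gene Id1 from 15.6 to 25.0 CPM (0.68) and the receptor gene Bmpr1a (0.43). Bmp6 was at 56.9, 28.1 and 52.1 CPM in BCAS mice 1 to 3, in the order of the ependymal and choroid plexus sums given with Sox2. In sham mice 1 to 3 it was at 14.9, 24.4 and 18.2 CPM, which is not the order of those sums. The astrocyte sums given above were higher in BCAS mice too, and the part of these cells in the Bmp genes was not tested. The Bmp antagonist Chrd fell from 65.0 to 49.8 CPM (-0.38, edgeR adjusted P = 0.0460), and Nog, the other antagonist, had -0.25 (edgeR adjusted P = 0.266). Wnt signals promote neuronal differentiation, and among the 7 genes tested the Wnt effector Lef1 rose from 4.47 to 9.13 CPM (1.03) and the secreted modulators Frzb and Dkk3 fell, Frzb from 30.1 to 14.5 CPM (-1.05) and Dkk3 from 461 to 299.9 CPM (-0.62). No Wnt ligand on the list passed. In the Notch group the ligand Jag1 (0.47) and the effector Rbpj (0.75) rose, and Hey1 did not pass (0.09). In the Hedgehog group Smo alone passed, from 24.1 to 40.05 CPM (0.73). Astrocyte markers (10 of 11 higher), endothelial markers (4 of 6 higher) and T and NK cell markers (8 of 8 tested higher) moved in the same libraries. Mature neuron markers (6 of 7 lower) did so too. Their sums are given above, and the part of these cells in the Wnt, Notch and Hedgehog genes, Lef1 included, was not tested.

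Growth factor and chemokine genes rose in 5 of 11 and fell in 1. Tgfb1 rose from 7.74 to 46.8 CPM (log2 fold change 2.60), Igf1 from 9.22 to 33.2 CPM (1.85), the chemokine receptor Cxcr4 from 2.66 to 8.92 CPM (1.74), Igf2 from 1.61 to 4.25 CPM (1.40) and Fgf2 from 7.61 to 19.0 CPM (1.32). Bdnf, a neurotrophin of excitatory neurons, fell from 55.0 to 27.4 CPM (-1.004, edgeR adjusted P = 0.000922). Tgfb1 and Igf1 are also microglial genes, and they moved with the microglial sums given above. Bdnf moved with the mature neuron markers. T and NK cell sums were also higher in BCAS mice, and ependymal and choroid plexus sums varied widely between mice, as given above. The part of these cells, of microglia and of neurons in the values of this group, Cxcr4 and Igf2 included, was not tested.

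The genes whose log2 CPM followed Dcx most closely over the 6 libraries, among 15629 genes with a mean of at least 1 CPM, were Rhebl1 (Pearson r = 0.98), Spag4 (0.98), Gm45380 (0.98), Tle2 (0.98) and Prmt9 (0.97). All 5 had their lowest level in BCAS mouse 3, as Dcx did, and 36 genes had an r above 0.9. These values are a description over 6 libraries that share their depth and normalization, and all 5 genes were chosen for the likeness.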

How the data were processed

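The authors trimmed the reads with Trim Galore, aligned them to mm10 with HISAT2, used SAMtools 1.9 and counted reads per gene with featureCounts, according to the study's methods and the submitters' processing notes. They deposited raw counts per gene, without normalization or filtering. Per the file headers, featureCounts 2.0.3 and GENCODE M20 were used, although the methods name version 1.6.3 and RefSeq genes, mates were counted separately, strand was ignored, and reads on exonic bases of several genes or with several alignments were left out. The headers number the BCAS libraries B2, B3 and B4, whereas the labels number them 1 to 3. Mice are numbered here by the labels.

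edgeR 4.0.16 in R 4.3.3 was used on the counts, with its filterByExpr filter, TMM factors and quasi-likelihood test. No replicate block was used, since the study's methods describe none. DESeq2 1.42.0 and limma-voom (limma 3.58.1) were alternatives, with RLE, library totals, other filters (at least 1 count, or a mean of 10 counts), a block, an absolute log2 fold change above 1 as a further threshold, and each mouse left out. The common biological coefficient of variation was 0.161. CPM on the log2 scale for the likeness to Dcx used a prior count of 2, and levels relative to markers used log2(CPM + 0.1) and were chosen after seeing the data, as was leaving out Gfap. The steps were tested on simulated data. Totals of 29652456 to 35607098 counts set the precision. Of 54752 genes, 29 had no symbol. No pair of libraries of a group agreed within sampling noise (chi-square per gene 12.7 to 43.8).

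The 9 genes, the other lists and the tests were chosen with earlier results of these data known. All 9 genes are named. From the other lists, up to 4 called genes with the largest change per group are named, and further ones were picked after their values were seen. RefSeq upstream sequences were matched for 8 of the 9 genes by symbol. An item of the lists is not reported here by name.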

Additional observations from a re-analysis of the deposited data

How the results depend on the processing

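Sox4 kept its direction and its call in all 13 other fits, and of the other 8 genes each kept its direction in every fit except Eomes and Dcx. Eomes turned to -0.14 without BCAS mouse 1. Dcx turned to -0.04 without BCAS mouse 1 and to -0.0909 without BCAS mouse 2. With a fold change threshold, 1762 genes passed (1576 higher, 186 lower), with 1 of the 9 genes (0 higher in edgeR, where 4 were higher at an unadjusted P under 0.05 with no fold change threshold), 13 of the other neurogenesis genes, 10 niche genes and 23 cell type markers. With library totals Hopx was 0.23 and passed, and the median over all genes was 0.09, beside 0.02 with TMM. Without a filter on low counts Neurod1 (-0.42) and Igfbpl1 (0.93) passed and Sox11 (0.33) did not. In that fit 2 of the 9 genes were called lower, beside 2539 of all 31988 genes tested. DESeq2 gave 0.92 for Igfbpl1, with a call. With each mouse left out in turn, calls over all genes ran from 3782 (without sham mouse 3) to 6646, those higher from 2453 to 3554 and those lower from 1260 to 3092. Calls among the 9 genes ran from 1 to 4 (higher 1 to 3, lower 0 to 2), among other neurogenesis genes from 24 to 35, among niche genes from 13 to 17 and among markers from 39 to 54. The log2 fold changes ran from 0.30 to 0.39 for Sox2, 0.14 to 0.17 for Hopx, -0.14 to 1.65 for Eomes, -2.60 to -1.37 for Neurog2, -0.62 to -0.25 for Neurod1, 0.66 to 0.81 for Sox4, 0.29 to 0.38 for Sox11, -0.09 to 0.20 for Dcx and 0.48 to 1.17 for Igfbpl1. The cause of these shifts was not tested.

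Equal replicate numbers did not mark pairs of mice: libraries with the same number had residual correlations of 0.036, -0.314 and -0.158. These are the numbers of the labels, and the file headers number the BCAS libraries otherwise, so the numbering itself is uncertain. With the replicate number as a block, 4532 genes were called, beside 5819 without it. Under this block Neurog2 was -2.09 (edgeR adjusted P = 0.0506) and Sox11 0.34 (0.0841), both without a call. So 0 of the 9 genes were called lower in edgeR, beside 1750 of all 18617 genes tested. At an unadjusted P under 0.05, 2 of the 9 were lower in the same fit. Without a block, 1 was called lower by DESeq2 and by limma-voom. Igfbpl1 was 0.92 with a call under the block (0.0267). Relative to astrocyte markers without Gfap, Sox2 was -0.33 and Hopx -0.50. Single libraries held as few as 8 counts of Eomes and 4 of Neurog2.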
